A study of Mus musculus with 12 samples.

Results

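Titin-linked stretch sensing in the heart was examined through 10 genes chosen by symbol from the 24062 listed in the count table: Ttn, Ankrd1, Ankrd2, Ankrd23, Xirp1, Xirp2, Csrp3, Fhl1, Fhl2 and Nrap. All 10 were found, and each is described below. Bulk polyA RNA was sequenced from mouse hearts, 1 library per heart, in 4 groups of 3. The RNA-Seq methods of the paper call these cardiac samples and do not name the chambers taken. The adult hearts were 2 months old and came from Lemd2 WT mice and from mice homozygous for the c.T38>G knockin allele (KI/KI), which is carried by every cell of the body. The hearts from postnatal day 1 (P1) came from Lemd2-floxed mice and from Lemd2 cKO mice, in which the floxed first exon was removed by a Myh6-Cre transgene that is active in cardiomyocytes. The P1 groups share the floxed allele, and the cKO mice also carry Cre, so the loss of Lemd2 and the presence of Cre cannot be told apart. Lemd2 encodes a protein of the inner nuclear membrane. The comparisons ask how the titin-linked genes differ between KI/KI and WT adult hearts, and between cKO and floxed hearts at P1.

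Titin, encoded by Ttn, is the giant protein that spans the sarcomere from Z-disc to M-band and acts as its molecular spring. Proteins docked along it or beside it at the Z-disc, I-band and intercalated disc are thought to pass information on stretch to signaling pathways and to the nucleus. The ankyrin repeat proteins of the MARP family, Ankrd1 (CARP), Ankrd2 and Ankrd23 (DARP), bind the N2A region of titin and can also be found in the nucleus, and Ankrd1 is a classic gene of the hypertrophic and failing heart. The four-and-a-half-LIM proteins Fhl1 and Fhl2 also bind titin. Csrp3 (muscle LIM protein) is a Z-disc protein whose loss causes dilated cardiomyopathy, and Xirp1, Xirp2 (the Xin proteins) and Nrap bind actin at the intercalated disc and at growing myofibrils.

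Promoter sequences are shown for 3 members that were higher in cKO hearts (Ankrd1, Xirp2 and Fhl1) and both that were lower (Ttn and Fhl2). Those of Ankrd23 and Csrp3, which were also higher, are not shown. Each line gives the 250 bases before a start site annotated by RefSeq (GRCm38.p6), 5′ to 3′ on the strand of the gene. Capitals mark matches, on either strand, to CATTCC (the MCAT element read by TEAD factors), the CArG box read by SRF, the MEF2 site (CTA, then 4 bases of A or T, then TAG), and the GATA motifs AGATAA and TGATAA.
Ankrd1 (chr19:36119845-36120094, minus strand): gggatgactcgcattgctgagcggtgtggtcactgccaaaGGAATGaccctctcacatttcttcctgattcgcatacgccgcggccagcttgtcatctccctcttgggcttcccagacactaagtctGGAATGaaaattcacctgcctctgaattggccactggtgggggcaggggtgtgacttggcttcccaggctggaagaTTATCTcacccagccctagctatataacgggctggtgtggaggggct
Xirp2 (chr2:67445752-67446001, plus strand): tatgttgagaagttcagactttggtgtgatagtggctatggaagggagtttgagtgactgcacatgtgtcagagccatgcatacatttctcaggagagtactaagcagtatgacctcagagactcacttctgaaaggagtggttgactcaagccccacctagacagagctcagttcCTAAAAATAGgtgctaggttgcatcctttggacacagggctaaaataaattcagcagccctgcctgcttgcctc
Fhl1 (chrX:56779433-56779682, plus strand): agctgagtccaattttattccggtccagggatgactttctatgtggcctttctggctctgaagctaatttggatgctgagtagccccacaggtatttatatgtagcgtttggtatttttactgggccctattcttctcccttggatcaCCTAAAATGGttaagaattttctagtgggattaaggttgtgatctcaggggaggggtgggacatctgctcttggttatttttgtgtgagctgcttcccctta
Ttn (chr2:76982548-76982797, minus strand): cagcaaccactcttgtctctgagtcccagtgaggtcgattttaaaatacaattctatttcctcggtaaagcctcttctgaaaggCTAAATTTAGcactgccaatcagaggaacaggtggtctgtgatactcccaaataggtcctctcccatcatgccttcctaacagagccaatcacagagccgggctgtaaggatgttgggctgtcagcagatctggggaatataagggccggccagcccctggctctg
Fhl2 (chr1:43196762-43197011, minus strand): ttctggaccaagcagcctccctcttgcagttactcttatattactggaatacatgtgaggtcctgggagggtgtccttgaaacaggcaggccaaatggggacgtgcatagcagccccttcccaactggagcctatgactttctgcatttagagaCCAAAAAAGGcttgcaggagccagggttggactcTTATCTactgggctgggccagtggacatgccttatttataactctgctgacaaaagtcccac

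Windows of 300 bases, which add the first 50 transcribed bases, were searched in 13 promoters of 9 members. Xirp1 had no entry, and Ankrd23, Csrp3, Fhl1 and Fhl2 had 2 start sites each. The Ankrd1 window held 2 MCAT matches, at bases -210 to -205 and -123 to -118, and 1 AGATAA match at -47 to -42. MCAT matches also stood in both Ankrd23 windows (37 to 42 and -120 to -115) and in Ttn (12 to 17), and AGATAA matches in Ankrd23 (-216 to -211) and Fhl2 (-62 to -57), so that these letters too occurred in genes that were higher and in genes that were lower. Among all 32851 promoters of the same length 14.7% held an MCAT match and 11.2% an AGATAA match. A MEF2 site, present in 0.557% of all promoters, was found in Xirp2 at -74 to -65 and in Ttn at -166 to -157, so that this match occurred in a gene that was higher and in a gene that was lower in cKO hearts. The CArG box, present in 1.63% of all promoters, was likewise shared by Fhl1 (-102 to -93) and by Fhl2, where each of the 2 start sites had a match (-96 to -87 and -31 to -22). TGATAA was found in Fhl1, at bases 29 to 34 after the start, and in 9.05% of all promoters. The E-box CANNTG, left in lower case, was found in 12 of the 13 windows and in 72.3% of all promoters. The windows of Csrp3, Ankrd2 and Nrap held E-boxes and no match to the other motifs. These are matches of letters, and binding was not measured.

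Total counts per library ranged from 37063669 to 44789753. Levels are given as CPM, the counts per 1000000 counts of a library, after TMM normalization over all 12 hearts, and 3 counts, the floor used here, correspond to at most 0.0965 CPM on this scale. Lemd2 itself was at 32.0 to 34.8 CPM in WT, 24.8 to 25.6 in KI/KI, 24.3 to 25.4 in floxed and 6.59 to 13.1 in cKO hearts. The summed level of 8 cardiomyocyte markers was 38421 to 45960 CPM in WT and 32694 to 41310 in KI/KI hearts. It was 26801 to 31812 CPM in floxed and 26279 to 31445 in cKO hearts, where 2 of the 8 were called lower and 0 higher. The summed fibroblast markers (7 genes) stood higher in each mutant group, at 2297 to 4567 against 1878 to 2267 CPM in adults and at 8314 to 9135 against 6163 to 6972 at P1, where 3 of the 7 were called higher. The 5 macrophage markers did so too, at 260 to 286 against 173 to 245 CPM in adults and at 100.3 to 197 against 86.5 to 98.3 at P1 (3 of 5 called higher). The 5 endothelial markers summed to 1144 to 1416 CPM in cKO against 969 to 1061 in floxed hearts (2 of 5 called higher), and the 5 smooth muscle markers to 1546 to 2849 against 1220 to 1643, with overlap. The part of these cells in the results was not tested. The 6 atrial cardiomyocyte markers summed to 3090, 2016 and 519.7 CPM in cKO replicates 4, 5 and 6, on both sides of the range in floxed hearts (1017 to 1641). In cKO replicate 4 the 4 Y-linked genes summed to 0.0798 CPM, near the floor, against 222.7 to 375 in the other hearts. The defining fast skeletal muscle genes Myh1, Myh2, Myh4, Actn3 and Pvalb did not exceed 3.54 CPM in any heart, but all 11 genes of that list summed to 158 to 389 CPM in cKO against 86.0 to 121 in floxed hearts (124 to 141 in WT and 89.6 to 153 in KI/KI hearts), with 2 of the 9 tested called higher and 1 lower. Most of that sum came from Casq1 (121 to 290 CPM in cKO and 50.9 to 73.4 in floxed hearts) and Myl1 (32.2 to 106 and 27.2 to 43.4). Tnni2 and Atp2a1 lay lower in every cKO heart than in the floxed hearts. In bulk tissue, fewer cells of a type and less RNA per cell cannot be told apart.

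In the control hearts the members spanned a wide range. Per kilobase of merged exon, the highest member in WT hearts was Fhl2, at 1051 ± 143 CPM per kb (SD, n = 3), followed by Ankrd1 (725 ± 101), Csrp3 (436 ± 48.0) and Nrap (260 ± 36.5), and each of these was separated from the next by the range of its hearts. Ankrd23 (133 ± 14.4), Xirp2 (122 ± 9.65) and Ttn (101 ± 13.8) followed with ranges that overlapped from neighbor to neighbor. Xirp1 and Fhl1 came after them, and Ankrd2, mainly a gene of slow skeletal muscle, was last at 0.263 ± 0.0222. By CPM alone Ttn was the highest member, with 0.940% to 1.13% of all counts in WT hearts, since its merged exons cover 116825 bases.

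The P1 floxed hearts held less of 9 members than WT adult hearts did, in every heart, and more of Fhl1. Across all genes that passed the filter over 12 hearts, 69.8% had floxed and WT groups that did not overlap, and these groups differ in age and in the floxed allele. Xirp2 showed the widest gap, with a mean of 29.0 CPM in floxed and 1466 in WT hearts, a ratio of 50.5. Ankrd23 was 16.7 times higher in WT hearts, whereas Xirp1, the relative of Xirp2, was only 1.27 times higher. Fhl1 was 1.53 times higher in floxed hearts. Thus, among the members, the P1 floxed and the adult WT hearts differed most in Xirp2 and Ankrd23. The plot of levels by group shows the hearts behind these means.

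**Figure D1:**
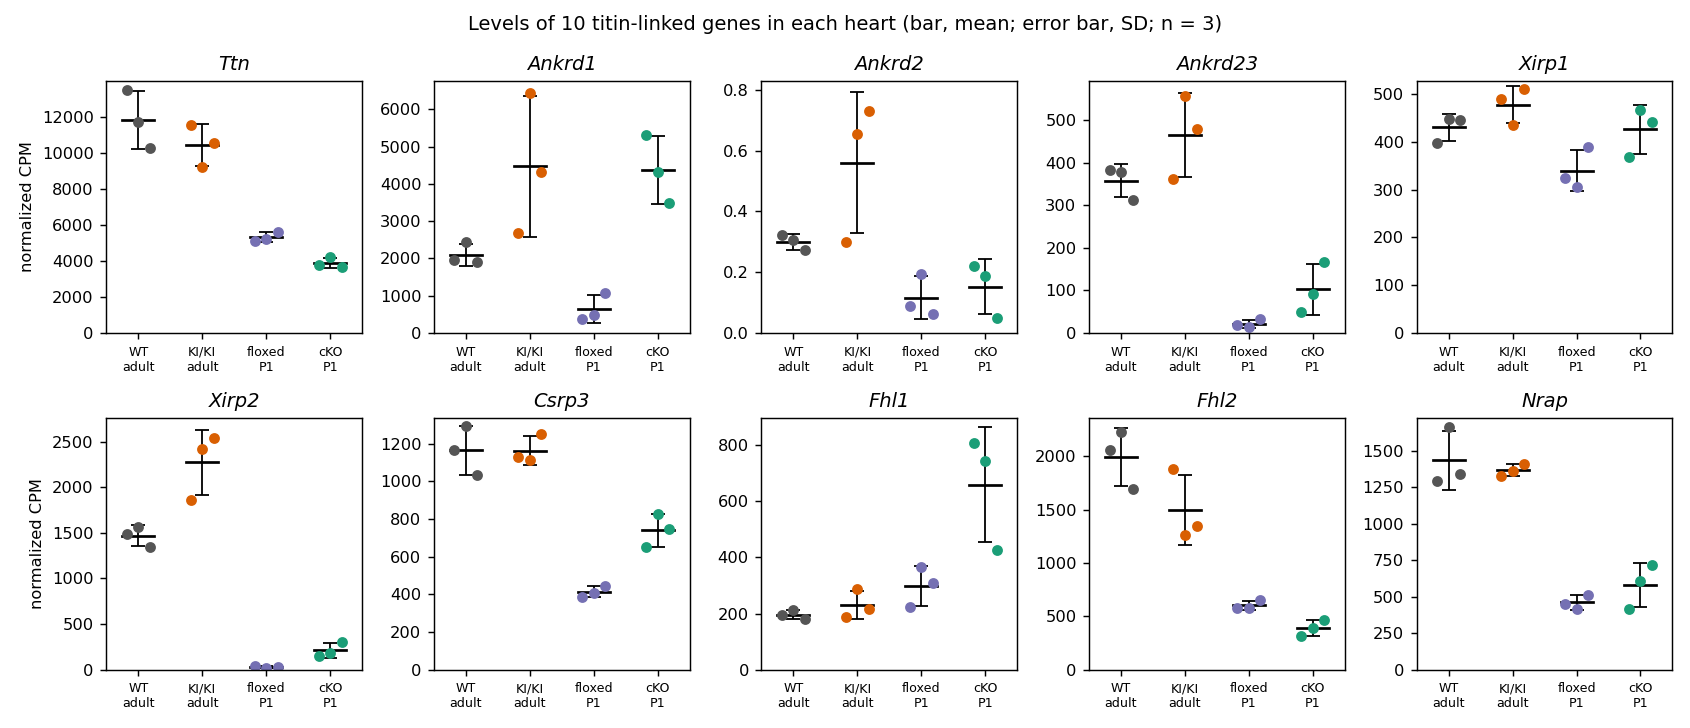
Normalized CPM (y axis, linear from 0, one scale per gene) of the 10 members in each of the 12 hearts, by group (x axis), with points for hearts, a bar for the mean and an error bar for the SD (n = 3). Ankrd1 in cKO hearts (3477 to 5312 CPM) lies above all floxed hearts (374 to 1084), while Xirp2 in cKO hearts (152 to 308) lies above the floxed hearts and far below the adult ones.

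In cKO hearts 7 of the 9 members tested passed an adjusted p of 0.05 in the quasi-likelihood test of edgeR, 5 higher (Xirp2, Ankrd1, Ankrd23, Fhl1 and Csrp3) and 2 lower (Fhl2 and Ttn). Among all 15317 genes tested 16.9% passed, 1427 higher and 1160 lower. The members were chosen with earlier results of these data known, so these shares are a description and no test of enrichment. Scaling libraries to the 8 cardiomyocyte markers moved the median of all genes by 0.23 on the log2 scale. Of these markers 2 were themselves called lower in cKO hearts, so this scaling also carries their change. So scaled, 3799 genes were higher and 415 lower. The 7 members then called were all higher, with Xirp1 (log2 fold change 0.56, adjusted p = 0.00672) and Nrap (0.56, adjusted p = 0.0488) in place of Ttn and Fhl2. Without that scaling, more than 2-fold changes at an adjusted p under 0.05 were seen in 4 members, all higher (Xirp2, Ankrd1, Ankrd23 and Fhl1), and in 4.64% of all genes. In the same 7 members no cKO heart fell within the floxed range, which was so for 39.8% of all genes. The median log2 fold change was 0.84 over the 9 members and 0.00 over all genes tested. Ankrd2 did not pass the filter on low counts at P1 and was not tested there. Because 4 of the 6 fits with a heart left out kept 4 or fewer of the 7 calls, the hearts behind each call are named with each gene.

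In KI/KI hearts none of the 10 members passed the same test of edgeR. No gene did among the 14592 tested (0%), although 2363 genes, or 16.2%, had an unadjusted p under 0.05, among them Ankrd1 and Xirp2. These 2 members were also those in which each KI/KI heart lay above each WT heart, and 22.4% of all genes had groups that did not overlap. DESeq2, the tool named in the study's methods, gave both an adjusted p under 0.05 and did so for 3.54% of the genes with an adjusted p. The median log2 fold change over the 10 members was 0.20, beside 0.00 for all genes.

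**Figure D2:**
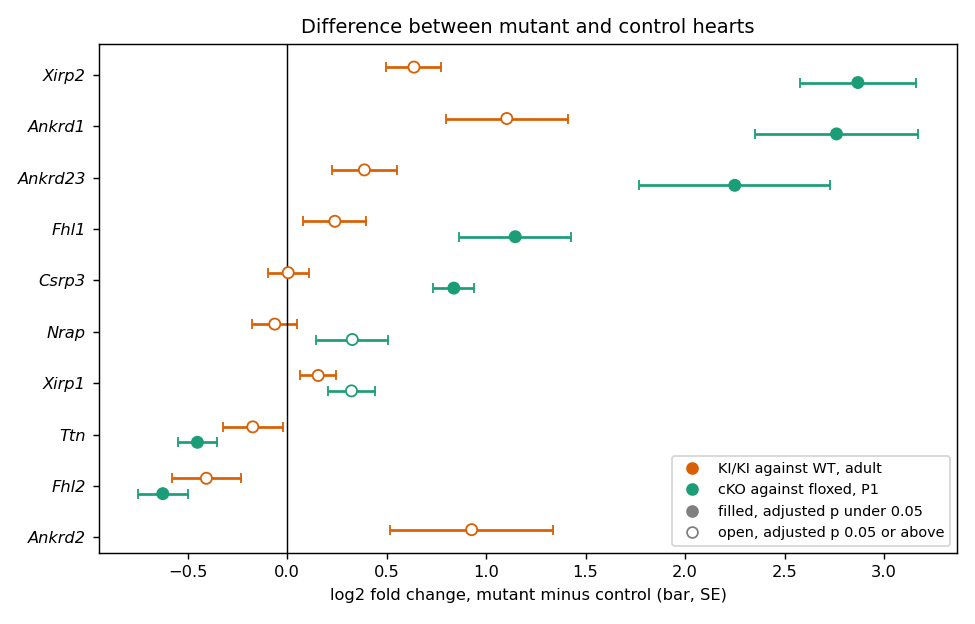
Log2 fold change of each member (x axis, mutant minus control, bars are standard errors) in adult KI/KI against WT hearts and P1 cKO against floxed hearts, with filled points for an adjusted p under 0.05 (edgeR). Xirp2 (2.87), Ankrd1 (2.76) and Ankrd23 (2.25) stand apart on the right at P1, Ttn (-0.45) and Fhl2 (-0.63) lie left of 0 at P1, and Ankrd2 has an adult point only.

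Ankrd1 (ENSMUSG00000024803.9, chr19:36111961-36120099 of GRCm38, minus strand), the cardiac ankyrin repeat protein that shuttles between titin's N2A region and the nucleus, was at 374, 489 and 1084 CPM in the floxed hearts and at 5312, 4321 and 3477 in cKO hearts. The lowest cKO heart stood above 3 times the level of the highest floxed heart. The log2 fold change was 2.76 (SE 0.41, adjusted p = 0.00968 in edgeR), and it was called in 4 of the 6 fits with a heart left out, with log2 fold changes of 2.48 without floxed replicate 1 (adjusted p = 0.0512) and 2.58 without floxed replicate 2 (adjusted p = 0.0510). In adults Ankrd1 was at 1955, 2429 and 1896 CPM in WT hearts and at 2676, 6448 and 4307 in KI/KI hearts. KI/KI replicate 4 was close to the highest WT heart, and replicate 5, the heart with the lowest cardiomyocyte marker sum (32694 CPM) and the highest fibroblast marker sum (4567 CPM), had the highest level; the part of the fibroblast markers in the result was not tested. The adult log2 fold change was 1.10 (SE 0.31, adjusted p = 0.236 in edgeR and 0.00466 in DESeq2). Scaling to the cardiomyocyte markers gave 1.41 (adjusted p = 0.306 in edgeR). The mean level in cKO hearts at P1 (4370 ± 918 CPM, SD, n = 3) was thus in the range of the KI/KI adult hearts and above all WT adult hearts.

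Ankrd23 (chr1:36530188-36536883, minus strand), the diabetes-related ankyrin repeat protein of the same family, was at 18.6, 13.5 and 32.3 CPM in the floxed hearts and at 49.0, 92.2 and 167 in cKO hearts. All cKO hearts were higher, and they spread over more than 3-fold among themselves. Its log2 fold change was 2.25 (SE 0.48, adjusted p = 0.0245 in edgeR), with an adjusted p of 0.121 without floxed replicate 1, 0.0906 without floxed replicate 2 and 0.0735 without cKO replicate 5. In adults the groups overlapped, with 313 to 382 CPM in WT and 361 to 557 in KI/KI hearts, and the log2 fold change was 0.39 (SE 0.17, adjusted p = 0.313 in edgeR). Gm42417, annotated as protein-coding on the same strand, overlaps Ankrd23 and was not counted separately. Its reads in shared bases cannot be told apart from those of Ankrd23.

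Ankrd2 (chr19:42036000-42045110, plus strand), the skeletal muscle member of the family, remained close to the floor. Its raw counts were 10 in each WT heart, 10, 27 and 26 in KI/KI hearts, 4, 9 and 3 in the floxed hearts and 11, 9 and 2 in cKO hearts. A difference at P1 was not detectable at this depth, and the adult log2 fold change was 0.93 (SE 0.41, adjusted p = 0.322 in edgeR). Hence 2 of the 3 members of the family passed the test in cKO hearts, and the third stayed near the floor.

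Xirp2 (ENSMUSG00000027022.13, chr2:67446002-67526614, plus strand), a Xin protein of the Z-disc and the intercalated disc, was at 36.3, 23.8 and 27.1 CPM in the floxed hearts and at 152, 181 and 308 in cKO hearts. Each cKO heart exceeded each floxed heart more than 4-fold. The log2 fold change of 2.87 (SE 0.29, adjusted p = 0.00520 in edgeR) was the largest of the members at P1 and stayed between 2.52 and 3.06, with an adjusted p under 0.05, in all 6 fits with a heart left out. In adults Xirp2 was at 1490, 1568 and 1341 CPM in WT hearts and at 1862, 2414 and 2538 in KI/KI hearts. Again no hearts overlapped, and the log2 fold change was 0.64 (SE 0.14, adjusted p = 0.198 in edgeR and 7.3e-04 in DESeq2). Even so, the highest cKO heart remained below every adult heart. Reads from the annotated antisense gene Gm13601, which overlaps Xirp2, cannot be told apart from its own where strand was not used in counting, and the same holds for Ttn (antisense Gm13938), Nrap (antisense Gm17197) and Fhl2 (Gm8210, a processed pseudogene on the other strand).

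Xirp1 (chr9:120013755-120023598, minus strand), the other Xin protein, did not pass the test in either comparison. It was at 306 to 389 CPM in floxed and 369 to 466 in cKO hearts, and at 397 to 448 in WT and 435 to 509 in KI/KI hearts. Both pairs of groups overlapped, and the log2 fold changes were 0.32 (SE 0.12, adjusted p = 0.103 in edgeR) at P1 and 0.16 (SE 0.09, adjusted p = 0.417) in adults. The annotation of Cx3cr1, a macrophage gene on the same strand, overlaps Xirp1, and how reads in shared bases were counted is not given in the sources used here. Cx3cr1 itself had 95 to 807 counts per library.

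Ttn (ENSMUSG00000051747.14, chr2:76703980-76982547, minus strand) itself was lower in cKO hearts. It was at 5114, 5230 and 5633 CPM in the floxed hearts and at 3783, 4228 and 3674 in cKO hearts, which is 0.606% to 0.624% of all counts against 0.405% to 0.455%. The groups did not overlap, and the spread within each was small. The log2 fold change was -0.45 (SE 0.10, adjusted p = 0.0271 in edgeR). This call was kept in 1 of the 6 fits with a heart left out (without cKO replicate 6, adjusted p = 0.0335); the other 5 gave log2 fold changes from -0.51 to -0.42 and adjusted p-values of 0.110, 0.0979 and 0.0641 without floxed replicates 1, 2 and 3 and of 0.0524 and 0.0722 without cKO replicates 4 and 5. With libraries scaled to the cardiomyocyte markers it was -0.22 (adjusted p = 0.0751), with the Y-linked level as a covariate -0.45 (adjusted p = 0.0609), and without the robust estimate of dispersion its adjusted p was 0.0557. In adults Ttn was at 10290 to 13504 CPM in WT and 9237 to 11562 in KI/KI hearts, with a log2 fold change of -0.17 (SE 0.15, adjusted p = 0.570 in edgeR). That scaling turned the adult value to 0.06.

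Csrp3 (chr7:48830398-48848033, minus strand), the muscle LIM protein of the Z-disc, was at 387, 408 and 447 CPM in the floxed hearts and at 651, 826 and 746 in cKO hearts. The hearts within each group lay close together and the groups were well apart. The log2 fold change was 0.84 (SE 0.10, adjusted p = 0.00684 in edgeR), and it was 0.79 (adjusted p = 0.0530) without floxed replicate 1. In adults Csrp3 was at 1035 to 1292 CPM in WT and 1113 to 1250 in KI/KI hearts, a log2 fold change of 0.00 (SE 0.10, adjusted p = 0.987). Nrap (chr19:56320035-56390037, minus strand), an actin-anchoring protein of the intercalated disc and of assembling myofibrils, was at 417 to 514 CPM in floxed and 418 to 721 in cKO hearts. Replicate 4 of the cKO hearts lay within the floxed range and the other 2 above it, and the log2 fold change was 0.33 (SE 0.18, adjusted p = 0.243 in edgeR). Without that heart it was 0.51 (adjusted p = 0.0429). In adults Nrap was at 1295 to 1664 CPM in WT and 1330 to 1412 in KI/KI hearts, with a log2 fold change of -0.06 (SE 0.11, adjusted p = 0.801).

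The FHL pair moved apart at P1. Fhl1 (chrX:56731787-56793346, plus strand), which binds titin and is mutated in human myopathies and cardiomyopathy, was at 222, 364 and 310 CPM in the floxed hearts and at 807, 742 and 424 in cKO hearts. All cKO hearts were higher, with replicate 6 close to the highest floxed heart. The log2 fold change was 1.15 (SE 0.28, adjusted p = 0.0363 in edgeR), and the call was kept in 1 of the 6 fits with a heart left out (without cKO replicate 6, adjusted p = 0.00532); the other 5 gave from 0.95 to 1.31, with adjusted p-values of 0.143, 0.0771 and 0.0819 without floxed replicates 1, 2 and 3 and of 0.0689 and 0.117 without cKO replicates 4 and 5. Fhl1 lies on the X chromosome, and cKO replicate 4, its highest heart, is the heart without Y-linked transcripts; with the Y-linked level as a covariate its log2 fold change was 0.93 (adjusted p = 0.0830). In adults it was at 180 to 214 CPM in WT and 188 to 286 in KI/KI hearts, with a log2 fold change of 0.24 (SE 0.16, adjusted p = 0.462).

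Fhl2 (chr1:43123074-43196984, minus strand), the heart-enriched FHL protein that links titin to metabolic enzymes, was at 577, 582 and 651 CPM in the floxed hearts and at 320, 393 and 463 in cKO hearts. Every cKO heart was lower. The log2 fold change was -0.63 (SE 0.13, adjusted p = 0.0214 in edgeR), and the call was kept without cKO replicate 4 (adjusted p = 0.0311) or 6 (adjusted p = 0.00604) and lost without floxed replicate 1, 2 or 3 (adjusted p = 0.0915, 0.0715 and 0.0557) or cKO replicate 5 (adjusted p = 0.0866). With libraries scaled to the cardiomyocyte markers it was -0.39 (adjusted p = 0.0541). In adults Fhl2 was at 2057, 2229 and 1696 CPM in WT hearts and at 1878, 1268 and 1351 in KI/KI hearts. KI/KI replicate 4 overlapped the WT range and the other 2 lay below it, and the log2 fold change was -0.41 (SE 0.17, adjusted p = 0.315 in edgeR).

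Ratios of raw counts between members within a library do not depend on the scaling of libraries. The Fhl1 to Fhl2 ratio was 0.385, 0.625 and 0.476 in the floxed hearts and 2.52, 1.89 and 0.916 in cKO hearts. Fhl1 counts thus outnumbered Fhl2 counts in 2 of the 3 cKO hearts and in no other heart. Merged exons cover 3714 bases in Fhl1 and 1897 in Fhl2. Per kilobase, Fhl1 was at 217 CPM against 169 for Fhl2 in cKO replicate 4, and at 200 against 207 in replicate 5. In adults the ratio was 0.0939 to 0.106 in WT and 0.0999 to 0.226 in KI/KI hearts. The Xirp2 to Xirp1 ratio was 0.0696 to 0.112 in floxed and 0.388 to 0.696 in cKO hearts, and 3.01 to 3.76 in WT and 3.81 to 5.54 in KI/KI hearts, without overlap in either comparison. The ratio of Ankrd1 to Ttn counts was 0.0732, 0.0935 and 0.192 in the floxed hearts and 1.40, 1.02 and 0.947 in cKO hearts. Counts of Ankrd1 thus exceeded those of the far longer Ttn in 2 cKO hearts. In adults that ratio was 0.145 to 0.207 in WT and 0.231 to 0.698 in KI/KI hearts, again without overlap. Ratios are given as a description, since an exact permutation test of 3 against 3 hearts cannot go below p = 0.10.

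**Figure D3:**
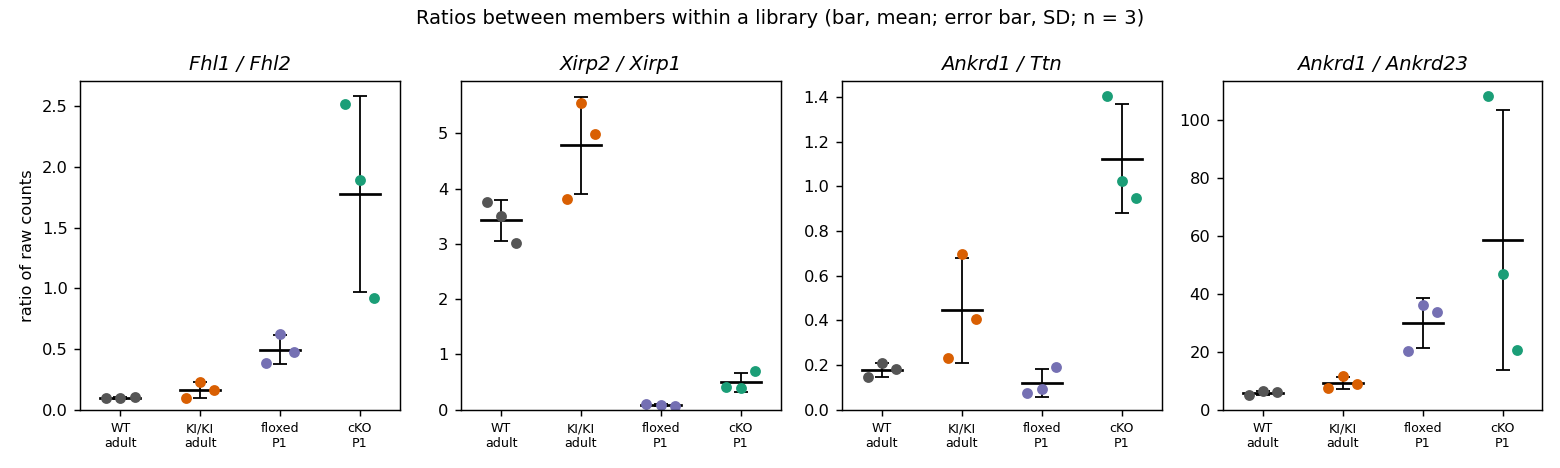
Ratio of raw counts between a pair of members in the same library (y axis, linear from 0, one scale per pair) in each heart, by group (x axis), with the mean and SD (n = 3). The Fhl1 to Fhl2 ratio is highest in cKO hearts (0.916 to 2.52) and the Ankrd1 to Ankrd23 ratio overlaps between floxed (20.1 to 36.3) and cKO hearts (20.8 to 108).

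The cKO hearts did not rank alike for all members. For Ankrd1 and Fhl1, replicate 4 was the highest and replicate 6 the lowest, at 3.19 and 2.58 on the log2 scale above the mean of the floxed hearts for Ankrd1 and at 1.46 and 0.54 for Fhl1. For Xirp2 and Ankrd23 the order was the reverse, with replicate 6 at 3.43 and replicate 4 at 2.41 for Xirp2, and at 3.06 and 1.29 for Ankrd23. The summed atrial markers followed the first order, from 3090 CPM in replicate 4 to 519.7 in replicate 6, and their part in the levels of Ankrd1 and Fhl1 was not tested. Across the KI/KI hearts, replicate 4 was the lowest for Ankrd1, Ankrd23, Xirp2 and Fhl1 and the highest for Fhl2 and Ttn.

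**Figure D4:**
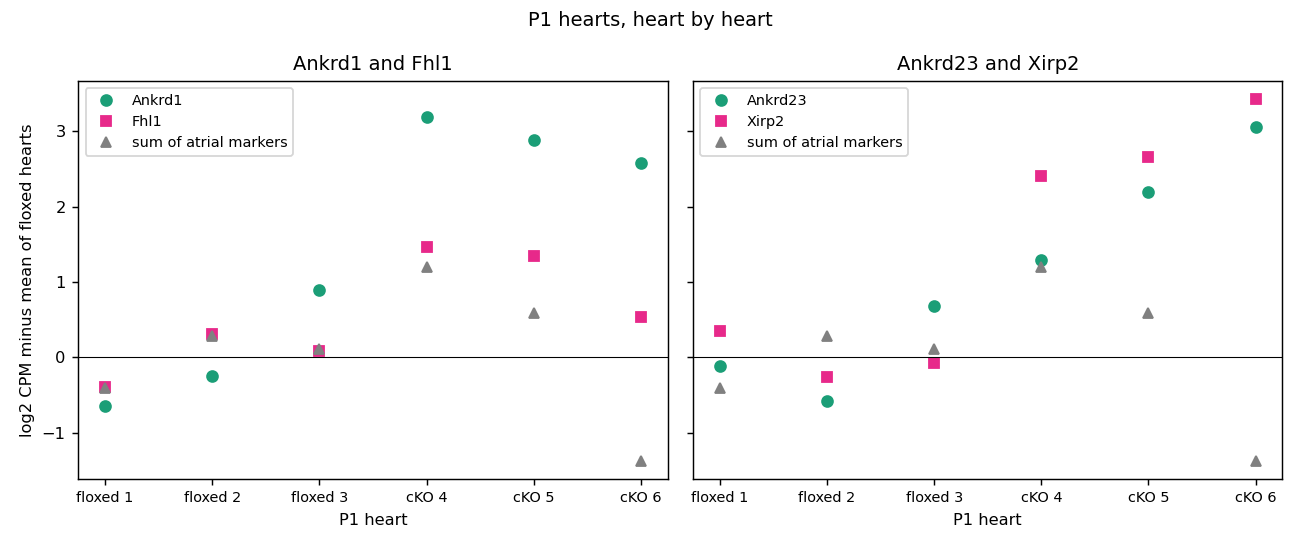
Level of Ankrd1 and Fhl1 (left) and of Ankrd23 and Xirp2 (right) in each P1 heart (x axis), as log2 CPM minus the mean of the 3 floxed hearts (y axis), with the sum of 6 atrial cardiomyocyte markers on the same scale in both panels. In cKO replicate 6 Ankrd23 (3.06) and Xirp2 (3.43) are at their highest, and Ankrd1 (2.58), Fhl1 (0.54) and the atrial markers are at their lowest among the cKO hearts.

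Whether the 2 models differ was tested as the difference of their log2 fold changes in a fit of all 12 libraries. Xirp2 and Csrp3 passed (2 of 10 members, beside 2.43% of the 15729 genes tested). The P1 log2 fold change exceeded the adult one by 2.25 for Xirp2 (SE 0.34, adjusted p = 0.0135 in edgeR) and by 0.84 for Csrp3 (SE 0.16, adjusted p = 0.0287). For Xirp2 this is a difference of ratios from unlike starting levels. Its mean went from 29.0 to 214 CPM at P1 and from 1466 to 2271 in adults, a larger rise in CPM in adults. For Ankrd1 the difference was 1.66 (SE 0.54, adjusted p = 0.124), for Ankrd23 1.88 (SE 0.55, adjusted p = 0.0946) and for Fhl1 0.91 (SE 0.35, adjusted p = 0.175), and none of these passed in edgeR. DESeq2 gave an adjusted p of 0.0364 for Ankrd23, 0.0706 for Ankrd1 and 0.0721 for Fhl1. With libraries scaled to the cardiomyocyte markers the difference was 2.21 for Xirp2 (adjusted p = 0.0511) and 0.82 for Csrp3 (adjusted p = 0.0532). The difference was -0.27 (SE 0.18, adjusted p = 0.448) for Ttn and -0.21 (SE 0.24, adjusted p = 0.679) for Fhl2. Model, age and allele change together in this design and cannot be told apart.

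Genes around the members were examined in 3 lists, which were also chosen with earlier results of these data known. Of 36 partners of titin and its Z-disc and M-band complexes, 13 passed the test in cKO hearts, 8 higher and 5 lower. Among all genes 16.9% passed. The median log2 fold change of the partners was -0.02. Scaled to the cardiomyocyte markers, 13 were called higher and 3 lower, with a median of 0.21. Among all 15317 genes so scaled, 3799 were called higher and 415 lower, with a median of 0.23. Unscaled, the partners called numbered 0, 4 and 8 without floxed replicates 1, 2 and 3, and 2 without cKO replicate 5. Trim63 (MuRF1), the ubiquitin ligase that binds titin near its kinase, fell from a mean of 203 to 134 CPM (log2 fold change -0.60, SE 0.08, adjusted p = 0.00728 in edgeR), and Cmya5 (myospryn) fell from 180 to 109 (log2 fold change -0.73, adjusted p = 0.0157). The Z-disc proteins Synpo2l and Myoz2 (calsarcin) rose by 0.62 and 0.64 on the log2 scale (adjusted p = 0.00843 and 0.0101). In KI/KI hearts none of the 36 passed, with a median of -0.02, and those with the smallest unadjusted p were Synpo2l (log2 fold change 0.51, adjusted p = 0.210) and Speg (log2 fold change -0.24, adjusted p = 0.236). The titin partners therefore held changes in both directions around a median near that of all genes.

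Of 19 genes known to respond to stretch or load, 17 passed the test in cKO hearts, each of them higher by more than 2-fold, beside 16.9% of all genes called and 4.64% called with that fold. The median log2 fold change was 2.08, and the count was 6 without floxed replicate 1 and 11 without floxed replicate 2. This list was chosen with earlier results of these data known, so its shares are a description and no test of enrichment. Egr1, an immediate early transcription factor, rose from a mean of 31.0 to 108 CPM (log2 fold change 1.81, adjusted p = 0.00481 in edgeR), and Hbegf, a growth factor shed from the cell membrane, from 14.1 to 36.2 (1.36, adjusted p = 0.00481). The YAP target Cyr61 rose by 2.95 (adjusted p = 0.00502) and the stress factor Atf3 by 2.29 (adjusted p = 0.00582) on the log2 scale. In KI/KI hearts 0 of the 18 tested passed, 16 were higher by their estimate and the median was 0.73; Nppb, which encodes the natriuretic peptide BNP, had a log2 fold change of 1.87 (SE 0.36, adjusted p = 0.193) and Acta1, skeletal alpha-actin, 2.40 (SE 0.46, adjusted p = 0.193). Several genes of this list, Cyr61, Ctgf and Thbs1 among them, are also made by fibroblasts, whose summed markers were higher in both mutant groups, and the part of these cells in the counts was not tested.

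Among 20 cardiac and mechanosensitive transcription factors, 7 passed the test in cKO hearts, beside 16.9% of all genes. Of these 6 were lower and 1 (Mkl1, a coactivator of SRF) was higher, and the median of the list was -0.04. Scaled to the cardiomyocyte markers, 1 was called lower and 4 higher, with a median of 0.20. Among all 15317 genes so scaled, 3799 were called higher and 415 lower, with a median of 0.23. Unscaled, the factors called numbered 1 without floxed replicate 1 or 2 and 2 without cKO replicate 4 or 5. Mkl1 passed in 0 of the 6 fits with a heart left out. The MEF2 factors Mef2a, Mef2d and Mef2c fell by 0.61, 0.46 and 0.41 on the log2 scale (adjusted p = 0.00634, 0.0106 and 0.0222 in edgeR), and the cardiac homeobox gene Nkx2-5 fell by 0.36 (adjusted p = 0.0313). Of these only Mef2a kept its call under that scaling (-0.38, adjusted p = 0.0179), and the other 3 lay between -0.23 and -0.13. Srf, the factor of the CArG box, had a log2 fold change of 0.36 (SE 0.23, adjusted p = 0.305), and Tead1, the main TEAD factor of the heart, 0.26 (SE 0.13, adjusted p = 0.203), which was 0.49 (adjusted p = 0.0106) when scaled to the cardiomyocyte markers. In KI/KI hearts none of the 19 tested passed (median -0.06), and Tead3 and Myocd had the smallest unadjusted p, with log2 fold changes of -0.24 (adjusted p = 0.236) and -0.23 (adjusted p = 0.244).

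**Figure D5:**
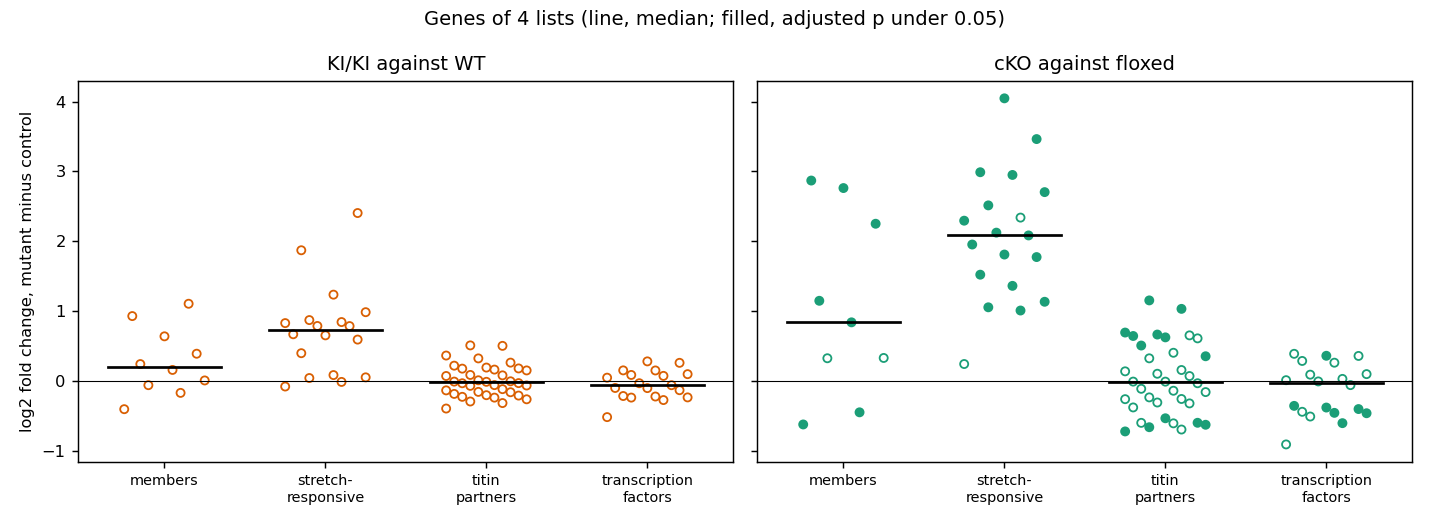
Log2 fold change (y axis, mutant minus control) of the members and of the genes in 3 lists (x axis) in adult KI/KI against WT hearts (left) and P1 cKO against floxed hearts (right), with a line at each median and filled points for an adjusted p under 0.05. In cKO hearts the stretch-responsive genes center on 2.08, the members on 0.84, and the titin partners and transcription factors near 0.

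The genes whose pattern was most like that of Ankrd1 were sought among the 15728 other genes that passed the filter over the 12 hearts, by Pearson's r of log2 CPM after subtracting the mean of the control hearts of the same age. They were Akap2, Praf2, Rexo2, Nppb and Golt1b, with r from 0.983 to 0.986, and Nppb went from a mean of 124 CPM in WT to 451 in KI/KI and from 63.1 in floxed to 1030 in cKO hearts. Those most like Xirp2 were Pacsin3, Dbf4, Lsm14a, Man1b1 and Ascc2, with r from 0.960 to 0.968. Among the members themselves, Ankrd23 (r = 0.940, rank 46 of 15728 genes) and Csrp3 (r = 0.924, rank 113) were closest to Xirp2. Closest to Ankrd1 were Fhl1 (r = 0.900, rank 525) and Xirp2 (r = 0.889, rank 620). Ttn (r = -0.812, rank 14550) and Fhl2 (r = -0.795, rank 14368) ran opposite to Ankrd1. Many genes outside the members thus lay closer to Ankrd1 and Xirp2 than the members did. Only the control mean was subtracted, so r includes the shift between mutant and control hearts. The ranks of members called at P1 therefore restate in part their fold changes. Among the cKO hearts alone, Ankrd1 and Xirp2 ranked in reverse order. These values describe 12 hearts in 4 groups that share libraries and depth.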

How the data were processed

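PolyA RNA-Seq of hearts was examined in 3 WT and 3 KI/KI adult mice and 3 floxed and 3 cKO mice at P1, 1 library each. The authors used Trim Galore to trim the single-end reads, STAR 2.7.2b for alignment to mm10, SAMtools 1.9 for sorting and HTSeq for counting per gene. The deposited table holds raw counts without normalization, and the strand setting is not given in the sources used here.

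Counts were tested in R 4.3.3 with edgeR 4.0.16 (TMM, filterByExpr, robust quasi-likelihood test), each comparison in its own 6 libraries and the difference between models in all 12, with Benjamini-Hochberg adjustment over all genes tested. Calls were an adjusted p under 0.05, or that and more than 2-fold. Standard errors were derived from each fold change and its F statistic. Alternatives were DESeq2 1.42.0, RLE size factors, scaling to 8 cardiomyocyte markers, other filters, dispersions and libraries, and a Y-linked covariate. The script was checked on simulated counts. The floor covers counting error only, whereas SDs, standard errors and p-values include the spread between mice.

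The members and gene lists were chosen with earlier results of these data known, and so were the tests. Named beyond the members were up to 4 genes per list with the smallest adjusted p (where none passed, the 2 with the smallest p) and the 5 genes most like Ankrd1 and Xirp2. Mkl1, Srf, Tead1, Ctgf and Thbs1 were named after their values were seen. Exon lengths and positions are from GENCODE vM21 (GRCm38), promoters from RefSeq.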

Additional observations from a re-analysis of the deposited data

Results flagged for a closer look

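The change in Xirp2 differed between the models, by the test of the difference itself. Its log2 fold change in cKO against floxed hearts exceeded that in KI/KI against WT hearts by 2.25 (SE 0.34, adjusted p = 0.0135 in edgeR), and the difference stayed between 1.89 and 2.44, with an adjusted p under 0.05, in all 12 fits with a heart left out. All 3 cKO hearts were above all floxed hearts and all 3 KI/KI hearts above all WT hearts. The ratios start from unlike levels, a mean of 29.0 CPM in floxed and 1466 in WT hearts. Scaled to the cardiomyocyte markers the difference was 2.21 (adjusted p = 0.0511).

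The change in Csrp3 also differed, by 0.84 (SE 0.16, adjusted p = 0.0287 in edgeR), with all 3 cKO hearts above the floxed hearts and overlapping groups in adults. Its adjusted p was under 0.05 in 5 of the 12 fits with a heart left out and 0.0532 after scaling to the cardiomyocyte markers; the fits that lost it left out WT replicate 1 or 2, KI/KI replicate 4 or 6, floxed replicate 1 or 2, or cKO replicate 5, with values from 0.76 to 0.90.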

How the results depend on the processing

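No paired analysis was possible because the groups compared share no replicate numbers (1 to 3 in controls, 4 to 6 in mutants). In KI/KI against WT hearts DESeq2 called 2 members (Ankrd1 and Xirp2), 1 of them by more than 2-fold, 2 titin partners, 4 stretch-responsive genes and 518 genes in all; the fit of all 12 libraries called 1 stretch-responsive gene and 48 genes. Scaling to the cardiomyocyte markers moved the median of all genes by 0.24 and 0.23 in the adult and P1 comparisons. With it 5 members had adult groups that did not overlap. Among all 14592 genes tested in adults, 2383 were then higher and 293 lower without overlap. The P1 call so scaled covered 4214 genes, and the difference between models was called for 0 members and 28 genes. The adult log2 fold changes of Ttn (0.062), Nrap (0.18), Tead3 (0.0060) and Myocd (0.011) turned positive. The adult value of Csrp3, near 0, was -0.0038 with DESeq2, -0.0016 with RLE size factors and -0.0027 in the fit of all 12 libraries. DESeq2 called 1325 genes for the difference between models. At P1 the fit of all 12 libraries called 4113 genes, and the Y-linked covariate 1630 genes, 8 titin partners and 2 transcription factors. The legacy dispersion method, chosen after seeing the data, changed no call of a member.

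With each heart left out in turn, the adult counts ran from 0 to 1 titin partner, 0 to 4 stretch-responsive genes, 2 to 6 members without overlap and 0 to 56 genes, the highest without KI/KI replicate 4. Over all 14735 to 14894 genes tested in these adult fits, 2105 to 3213 were higher without overlap and 1976 to 3164 lower. The P1 counts ran from 1 to 7 members, 1 to 4 members past 2-fold, 0 to 14 titin partners, 6 to 18 stretch-responsive genes, 1 to 6 transcription factors and 160 to 3463 genes, with each of these minima without floxed replicate 1 and 668 genes without floxed replicate 2 and 542 without cKO replicate 5. For the difference between models 1 to 4 members and 51 to 924 genes were called. The adult log2 fold change of Csrp3 ran from -0.065 to 0.082 and that of Nrap from -0.14 to 0.053, and the difference between models for Ankrd2 from -0.85 to 0.090. The direction of the members called at P1 was the same in all these fits. Ankrd2 and other genes near 3 counts are limited by depth, and groups of 3 hearts limit the rest.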
